A study of Mus musculus with 16 samples.

Results

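Apelin and CXCL12 are signalling peptides that reach endothelial cells through G protein-coupled receptors. The genes of these axes were taken by name from the merged gene table: the ligands Apln and Cxcl12 and the receptors Aplnr, Cxcr4 and Ackr3, which are 5 of 43346 genes. Apelin binds the apelin receptor encoded by Aplnr, and in blood vessels it is known for roles in sprouting, vessel calibre and vascular tone. CXCL12 binds CXCR4, which signals through G proteins to direct cell migration, and ACKR3, an atypical receptor that takes the chemokine up and removes it. In the lung, Apln is a known gene of aerocytes, the large capillary endothelial cells of the gas exchange surface, Aplnr is known from the general capillary cells beside them, and Cxcl12 is known from arterial endothelium.

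RNA was measured in 16 libraries of endothelial cells sorted from mouse lung. All mice were of the FVB strain and carried a Col1a1-GFP reporter, and the sorted cells were CD31+, CD45-, EpCAM- and GFP-, so that reporter-positive fibroblasts, leukocytes and epithelial cells were gated out. Young mice were aged 2 months, and the aged ones 18 months. The 4 groups were Young Sham (5 libraries), Young Bleo (4), Aged Sham (3) and Aged Bleo (4), where Sham mice received PBS and Bleo mice received bleomycin, a drug that injures the lung and leads to fibrosis, through the trachea about a month before the cells were taken. Mice of both sexes were used according to the methods, and the labels do not give the sex of each mouse. The study asked how the endothelial response to this injury differs between young and aged lungs.

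Counts summed over genes ranged from 20907113 to 71035301 per library, and 15092 to 17259 genes had at least 10 counts. The endothelial genes Pecam1 (48835 to 88941 normalized counts) and Cdh5 (26994 to 43197) were high in every library. Ptprc, which encodes the CD45 used to gate leukocytes out, lay at 0 to 938 normalized counts, and Col1a1 at 440 to 1818. All 16 libraries carried the Y-linked transcript Ddx3y at 1359 to 3660 normalized counts, with Xist at 39.0 or less. By these transcripts every library looked male, and no mix of sexes was seen between groups, which bears on Apln as an X-linked gene. Normalized counts below are counts divided by the size factor of the library, and FPKM, a value per length and per library size, was used where different genes are compared.

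In mm10 the 5 genes lie on 4 chromosomes. Apln (ENSMUSG00000037010) spans chrX:48025146-48034853, Aplnr (ENSMUSG00000044338) chr2:85136225-85139923, and Cxcl12 (ENSMUSG00000061353) chr6:117168535-117181367. Cxcr4 (ENSMUSG00000045382) spans chr1:128588199-128592293 and Ackr3 (ENSMUSG00000044337) chr1:90203980-90216751. The sequence directly upstream of the transcription start is shown because the members moved in different directions and because the ETS factor Erg is among the regulators described below. RefSeq promoters (GRCm38.p6) matched 4 of the 5 members, and the 250 bases before the start are printed 5′ to 3′ on the strand of the gene. Capitals mark the ETS core GGAA or its reverse complement TTCC.
Apln, chrX:48034854-48035103, minus strand: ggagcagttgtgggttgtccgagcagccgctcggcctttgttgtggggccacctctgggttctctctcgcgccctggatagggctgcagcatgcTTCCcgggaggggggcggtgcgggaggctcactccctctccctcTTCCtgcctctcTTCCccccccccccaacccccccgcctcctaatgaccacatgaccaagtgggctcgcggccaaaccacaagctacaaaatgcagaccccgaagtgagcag
Cxcl12, chr6:117168285-117168534, plus strand: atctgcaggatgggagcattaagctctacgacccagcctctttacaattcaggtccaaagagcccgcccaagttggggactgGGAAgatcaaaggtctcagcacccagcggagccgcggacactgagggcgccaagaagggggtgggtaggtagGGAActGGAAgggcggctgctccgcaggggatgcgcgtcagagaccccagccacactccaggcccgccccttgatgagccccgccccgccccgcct
Cxcr4, chr1:128592300-128592549, minus strand: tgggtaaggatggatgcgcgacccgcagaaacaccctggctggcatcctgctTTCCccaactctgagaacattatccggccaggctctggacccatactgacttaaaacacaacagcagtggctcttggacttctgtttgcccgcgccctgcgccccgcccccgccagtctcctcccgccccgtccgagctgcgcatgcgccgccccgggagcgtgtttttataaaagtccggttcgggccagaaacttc
Ackr3, chr1:90203730-90203979, plus strand: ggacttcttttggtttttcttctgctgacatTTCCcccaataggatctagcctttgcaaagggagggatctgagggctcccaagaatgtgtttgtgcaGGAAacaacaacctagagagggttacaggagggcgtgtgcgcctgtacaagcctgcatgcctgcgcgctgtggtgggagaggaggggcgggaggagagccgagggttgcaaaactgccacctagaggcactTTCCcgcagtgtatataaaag
The upstream sequences of Apln, Cxcl12 and Ackr3 each held 3 matches to GGAA on either strand, and that of Cxcr4 held 1. Among 32851 mouse promoters, 93.4% had at least 1 match in the same window and the median was 3 matches. The longer AGGAAG, which contains GGAA, was found upstream of Apln alone and in 29.5% of all promoters, and CGGAAG (13.6% of promoters) in none of the 4 sequences. GCGTG, a form of the core bound by hypoxia-inducible factors, was present once each upstream of Cxcr4 and Ackr3 and in 28.2% of promoters, whereas the form ACGTG (16.6%) was in none of the 4. These matches describe letters in a window and not bound sites.

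The order of the 5 genes by mean level changed with bleomycin. On the FPKM scale, Young Sham cells had most Apln (84.8 ± 9.98, SD, n = 5), followed by Ackr3 (33.1 ± 3.58), Aplnr (28.8 ± 6.77), Cxcl12 (11.0 ± 2.83) and Cxcr4 (2.46 ± 0.787). Ackr3 and Aplnr, neighbours in that order, overlapped between libraries. In Young Bleo cells Cxcl12 led at 114 ± 44.6 FPKM (n = 4), with Ackr3 at 46.9 ± 6.24, Aplnr at 39.0 ± 12.8, Apln at 23.6 ± 16.7 and Cxcr4 at 2.81 ± 0.706. Aged Sham cells kept Apln first, at 65.4 ± 10.4 FPKM (n = 3), then Ackr3 (28.9 ± 5.17), while Aplnr (10.4 ± 3.56) and Cxcl12 (10.4 ± 6.01) had the same mean and Cxcr4 was at 0.684 ± 0.182. In Aged Bleo cells the means of Cxcl12 (68.3 ± 59.9 FPKM, n = 4) and Ackr3 (63.4 ± 31.3) were within their spread of each other, above the means of Apln (39.8 ± 16.5), Aplnr (18.0 ± 4.83) and Cxcr4 (1.61 ± 0.751). The order differed by library. Cxcl12 led in Aged Bleo 1 (142 FPKM) and Ackr3 in Aged Bleo 2 (94.2), whereas Apln led in Aged Bleo 3 (55.3) and 5 (49.6). Cxcr4 was the lowest of the 5 in every library, with 79 to 729 raw counts, whereas each of the other 4 genes had at least 1556.

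**Figure D1:**
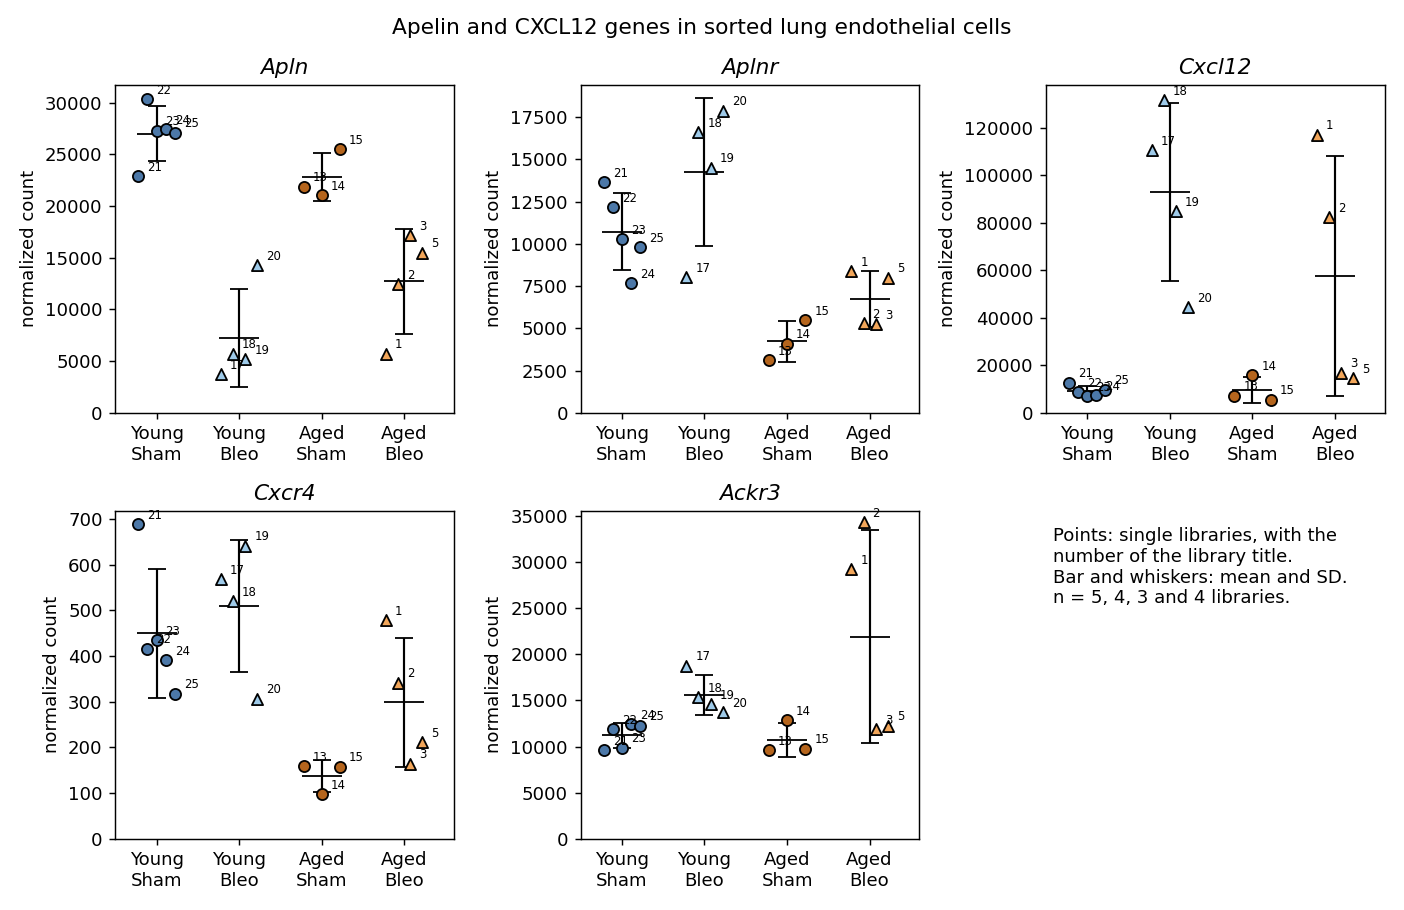
Normalized counts (vertical axis) of the 5 genes in each of 16 libraries of the 4 groups, with the mean and SD of each group and the library number beside each point. Apln is high in both sham groups and low in Young Bleo 17, 18 and 19 and in Aged Bleo 1, Cxcl12 shows the opposite order, and Aplnr and Cxcr4 are lowest in Aged Sham.

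Apelin, the ligand, fell after bleomycin in young mice. Apln was at 22887, 30308, 27293, 27394 and 27092 normalized counts in Young Sham 21 to 25, and at 3756, 5712, 5208 and 14255 in Young Bleo 17 to 20. All Young Bleo libraries lay below all Young Sham libraries, with Young Bleo 20 the highest of its group. On the log2 scale the difference was -1.90 ± 0.34 (SE, adjusted p = 1.9e-06 by DESeq2 and 0.0049 by edgeR's quasi-likelihood test). Because these are bulk samples, fewer cells of a type and less RNA per cell cannot be told apart. In this comparison 2 of the 5 members were called by DESeq2 (adjusted p at most 0.05 and a log2 fold change of at least 0.5 in size), beside 13.9% of all genes tested, and edgeR called the same 2 beside 9.78%.

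In aged mice the level of Apln spread widely after bleomycin. Aged Sham 13, 14 and 15 had 21877, 21034 and 25473 normalized counts, and Aged Bleo 1, 2, 3 and 5 had 5726, 12441, 17163 and 15469. The 4 Aged Bleo libraries lay below the 3 Aged Sham libraries without overlap, and the log2 fold change of -0.84 ± 0.38 did not pass the test (adjusted p = 0.19 by DESeq2 and 0.29 by edgeR). Against Young Sham, Aged Bleo cells had a log2 fold change of -1.09 ± 0.34 that DESeq2 called (adjusted p = 0.017) and edgeR did not (0.076). That call was lost without Aged Bleo 1 (-0.84, adjusted p = 0.097 by DESeq2) or without Aged Bleo 2 (-1.08, 0.059). Aged and young cells after bleomycin differed in Apln by 0.81 ± 0.36 (adjusted p = 0.35 by DESeq2), and without Young Bleo 20 the difference was 1.37 and called (adjusted p = 3e-04). Between the sham groups the difference of -0.24 was not called, with a 95% interval from -0.96 to 0.48 on the log2 scale.

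Aplnr, the apelin receptor, was lower in sham cells of aged mice. Young Sham 21 to 25 had 13652, 12176, 10272, 7680 and 9811 normalized counts, and Aged Sham 13, 14 and 15 had 3109, 4098 and 5491. Every Aged Sham library lay below every Young Sham library, and the log2 fold change of -1.34 ± 0.28 was called by DESeq2 (adjusted p = 2.3e-04) and by edgeR (0.032). Both tools called 2 of the 5 members between the sham groups, Aplnr and Cxcr4, beside 3.35% of genes by DESeq2 and 0.862% by edgeR. Leaving out any 1 library kept this call, with values from -1.57 to -1.16.

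After bleomycin Aplnr was at 8039, 16609, 14502 and 17868 normalized counts in Young Bleo 17 to 20, and at 8370, 5314, 5254 and 7996 in Aged Bleo 1, 2, 3 and 5. These groups overlapped through Young Bleo 17 and Aged Bleo 1, and between the bleomycin groups 0 of the 5 members lacked overlap, beside 5.07% of genes. DESeq2 called the receptor lower in Aged Bleo than in Young Bleo, at -1.08 ± 0.27 (adjusted p = 0.012), the only member called of the 5 beside 1.03% of genes, and edgeR did not call it (0.21). The corresponding edgeR share was 0.0437% of genes. The DESeq2 call was lost without Aged Bleo 2 (-0.99, adjusted p = 0.054), Aged Bleo 3 (-0.98, 0.073), Young Bleo 18 (-1.003, 0.064) or Young Bleo 19 (-1.08, 0.051). Against the sham group of the same age, Aplnr differed by 0.41 in Young Bleo (95% interval -0.09 to 0.91) and by 0.67 in Aged Bleo (0.10 to 1.24). Both pairs of groups overlapped, and neither difference was called after adjustment (0.30 and 0.16 by DESeq2).

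Cxcl12 showed the largest change of the 5 genes. Young Sham 21 to 25 had 12721, 8730, 6898, 7363 and 9779 normalized counts, and Young Bleo 17 to 20 had 110411, 131567, 84899 and 44555. The groups did not overlap, and the Young Bleo mean was 10.2 times the Young Sham mean. The log2 fold change was 3.35 ± 0.50 (adjusted p = 7.5e-09 by DESeq2 and 0.0026 by edgeR), and it stayed between 3.14 and 3.58 when any 1 library was left out. In 3 of the 5 members (Apln, Cxcl12 and Ackr3) no Young Bleo library overlapped with Young Sham, beside 17.9% of genes with a mean of at least 50 normalized counts.

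The aged response of Cxcl12 was uneven between mice. Aged Sham 13, 14 and 15 had 7158, 15784 and 5512 normalized counts, and Aged Bleo 1, 2, 3 and 5 had 116970, 82244, 16922 and 14551. Aged Bleo 1 and 2 were in the range of the Young Bleo libraries, whereas Aged Bleo 3 and 5 were close to Aged Sham 14, so the aged groups overlapped. The same 2 pairs of libraries also differed over genes in general, as given in the processing section below. DESeq2 called the rise of 2.60 ± 0.57 over Aged Sham (adjusted p = 6.4e-04) and edgeR did not (0.059). Leaving out 1 library gave values from 2.00 (without Aged Bleo 1, adjusted p = 0.02) to 3.19 (without Aged Sham 14, 6.2e-05), all called by DESeq2. DESeq2 called 2 of the 5 members here, Cxcl12 and Ackr3, beside 5.83% of genes, and edgeR called 0 beside 0.797%, while all 5 members had an unadjusted DESeq2 p under 0.05, beside 19% of genes. Relative to Young Sham the log2 fold change of 2.66 ± 0.50 was called by both tools (9.3e-06 by DESeq2 and 0.0094 by edgeR), and was 2.06 without Aged Bleo 1 (DESeq2 adjusted p = 0.0019). Between the sham groups Cxcl12 differed by 0.06 with a 95% interval from -1.01 to 1.13, and between the bleomycin groups by -0.69 with an interval from -1.72 to 0.35. Neither difference was called, and both intervals held values of either sign. Leaving out 1 library moved the difference between the bleomycin groups to between -1.29 (without Aged Bleo 1) and -0.37 (without Aged Bleo 5).

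Cxcr4, the signalling receptor for CXCL12, was also lower in sham cells of aged mice. Young Sham 21 to 25 had 688, 416, 435, 391 and 317 normalized counts, and Aged Sham 13, 14 and 15 had 158, 96.9 and 157. The highest Aged Sham library was below the lowest Young Sham library, and the log2 fold change of -1.71 ± 0.37 was called by DESeq2 (adjusted p = 4.7e-04) and edgeR (0.041). Raw counts were 79 to 172 per Aged Sham library, fewer than for any other member. Aplnr and Cxcr4 were the 2 members whose sham groups did not overlap, beside 9.63% of genes. Leaving out any 1 of the 8 libraries kept the DESeq2 call of Cxcr4, with values from -1.83 to -1.51.

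After bleomycin Cxcr4 was at 568, 520, 641 and 306 normalized counts in Young Bleo 17 to 20 and at 477, 341, 164 and 211 in Aged Bleo 1, 2, 3 and 5. Young Bleo did not separate from Young Sham (0.18, 95% interval -0.47 to 0.83). Every Aged Bleo library lay above every Aged Sham library, by a narrow margin for Aged Bleo 3, and the difference of 1.12 ± 0.38 just missed the threshold by DESeq2 (adjusted p = 0.054; edgeR 0.14). Without Aged Bleo 3 it was 1.32 and called (adjusted p = 0.01 by DESeq2), and without Aged Bleo 5 it was 1.25 and called (0.033). Apln and Cxcr4 were the 2 members without overlap between the aged groups, beside 13% of genes.

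Ackr3, the receptor that removes CXCL12, overlapped between the sham groups. Young Sham 21 to 25 had 9631, 11891, 9866, 12456 and 12272 normalized counts, and Aged Sham 13, 14 and 15 had 9584, 12874 and 9742. The sham groups overlapped almost fully, with a difference of -0.06 (95% interval -0.65 to 0.52). Young Bleo 17 to 20 had 18773, 15332, 14571 and 13745 normalized counts. All 4 were above every Young Sham library, and the difference of 0.48 ± 0.28 was not called (adjusted p = 0.26 by DESeq2).

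Aged Bleo 1, 2, 3 and 5 had 29246, 34344, 11869 and 12259 normalized counts of Ackr3. Aged Bleo 1 and 2 were the 2 highest libraries of the series for this gene, whereas 3 and 5 were within the sham range. Against Young Sham the log2 fold change was 0.97 ± 0.28 (adjusted p = 0.0078 by DESeq2 and 0.039 by edgeR), and against Aged Sham 1.03 ± 0.31 (0.024 by DESeq2 and 0.098 by edgeR). The first call was lost without Aged Bleo 1 (0.80, adjusted p = 0.082) or 2 (0.66, 0.11), and the second without Aged Bleo 1 (0.86, 0.14), Aged Bleo 2 (0.73, 0.13), Aged Sham 13 (0.95, 0.097) or Aged Sham 15 (0.97, 0.11), all by DESeq2. In Aged Bleo against Young Sham 3 of the 5 members were called by DESeq2 (Apln, Cxcl12 and Ackr3), beside 9.72% of genes, and 2 by edgeR, beside 5.69%. Apln and Cxcl12 were the 2 without overlap, beside 12.3% of genes.

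**Figure D2:**
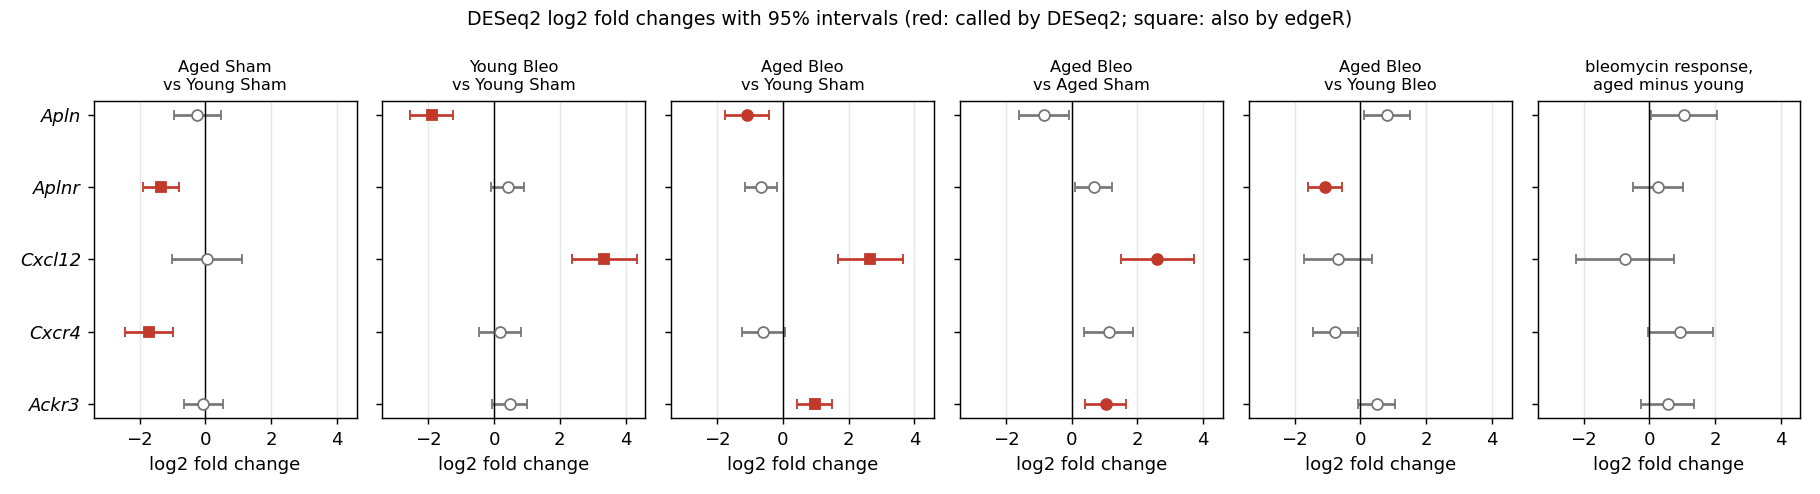
DESeq2 log2 fold changes (horizontal axis) of the 5 genes with 95% intervals in 5 comparisons and in the difference between the aged and young responses, with calls in red and squares for calls by both tools. Aplnr and Cxcr4 stand to the left in Aged Sham, Apln to the left and Cxcl12 to the right in Young Bleo, and no member is red in the last panel.

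The difference between the aged and the young response to bleomycin was tested directly. DESeq2 called 0 of the 5 members, beside 0.381% of genes, with 1 member at an unadjusted p under 0.05 (8.1% of genes), and edgeR also called 0, beside 0.00546%. Apln had a difference of 1.06 (95% interval 0.05 to 2.06, adjusted p = 0.57 by DESeq2), and without Young Bleo 20 it was 1.62 and called (adjusted p = 0.0073). Cxcr4 differed by 0.94 (-0.05 to 1.93), Ackr3 by 0.56 (-0.26 to 1.37), Aplnr by 0.26 (-0.50 to 1.01) and Cxcl12 by -0.75 (-2.23 to 0.74). When 1 library was left out, the Cxcl12 difference ran from -1.35 to -0.16. The comparisons with Young Sham share those 5 libraries.

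Ratios of ligand to receptor RNA were formed within each library from FPKM plus a pseudocount of 0.1, which lowers a ratio whose denominator is low. The ratio of Apln to Aplnr, as a geometric mean of FPKM, was 3.00 in Young Sham (1.97 to 4.17), 0.546 in Young Bleo (0.405 to 0.937), 6.42 in Aged Sham (5.42 to 8.16) and 2.09 in Aged Bleo (0.804 to 3.82). Apln thus exceeded Aplnr in all sham libraries and was below it in all 4 Young Bleo libraries and in Aged Bleo 1. Aged Sham differed from Young Sham by 1.10 on the log2 scale and Young Bleo from Young Sham by -2.46, neither with overlap. The ratio of Cxcl12 to Cxcr4 was 4.38 in Young Sham (3.41 to 6.51), 37.4 in Young Bleo (28.5 to 54.1), 12.4 in Aged Sham (7.03 to 30.0) and 29.6 in Aged Bleo (14.1 to 52.2). Its highest Aged Sham value, in library 14, lay within the range of both bleomycin groups.

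The ratio of the removing receptor Ackr3 to the signalling receptor Cxcr4 separated young from aged libraries in either treatment. It was 13.3 in Young Sham (7.39 to 19.8) and 16.5 in Young Bleo (12.0 to 23.0), against 37.3 in Aged Sham (29.0 to 59.6) and 36.0 in Aged Bleo (29.0 to 51.5). All 7 aged libraries were above all 9 young libraries with the pseudocount of 0.1. With a pseudocount of 1, Aged Sham 13 and 15 were below Young Bleo 20. Ackr3 itself overlapped between the sham groups, so the sham ratio mostly restates the lower Cxcr4 given above. How many other gene pairs separate by age was not tested. The log2 difference in the ratio was 1.48 between the sham groups (0.82 with a pseudocount of 1) and 1.13 between the bleomycin groups (0.86). Over the 15 tests of 3 ratios in 5 comparisons, two-sided exact permutation tests gave an unadjusted p under 0.05 in 8, and 0 passed after adjustment over the 15, the smallest adjusted p being 0.06. Groups of this size allow no p under 0.016, 0.029, 0.036 or 0.057, depending on the pair, and the age differences in Ackr3 to Cxcr4 were at those limits (exact permutation p = 0.036 in sham and 0.029 after bleomycin, both 0.067 adjusted).

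**Figure D3:**
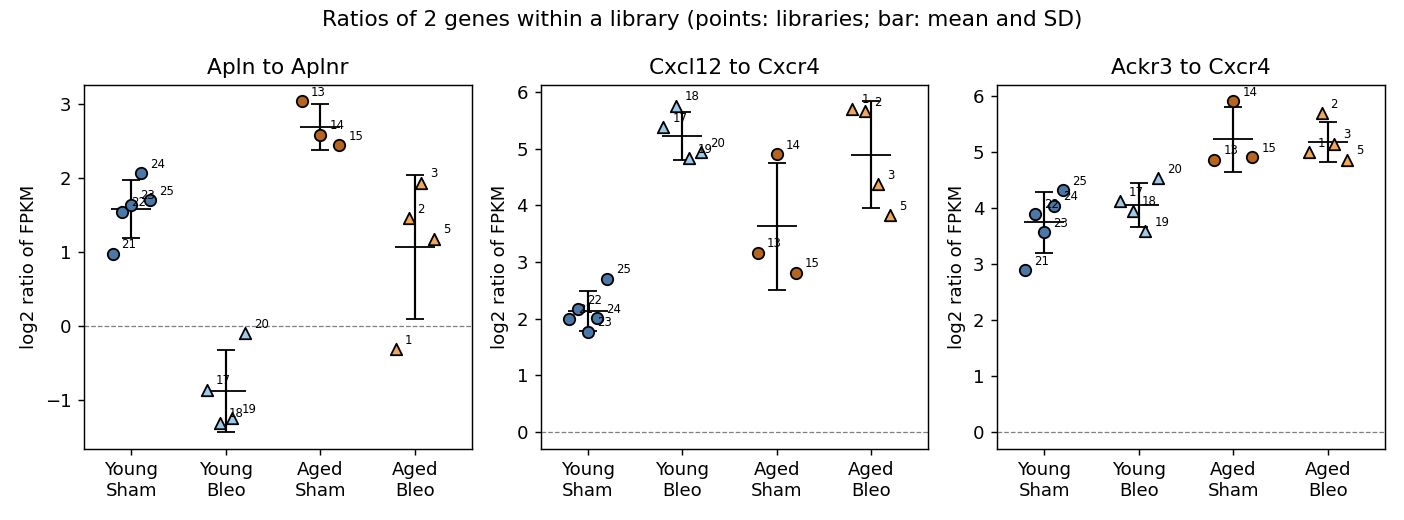
Log2 ratios of FPKM (vertical axis) of Apln to Aplnr, Cxcl12 to Cxcr4 and Ackr3 to Cxcr4 in each library of the 4 groups, with the mean and SD. Apln to Aplnr falls below 0 in all Young Bleo libraries and in Aged Bleo 1, and Ackr3 to Cxcr4 is higher in the 7 aged than in the 9 young libraries.

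Markers of the endothelial types moved with the members. The 6 aerocyte markers (Car4, Ednrb, Tbx2, Fibin, Chst1 and Emp2) all fell in Young Bleo by DESeq2 and 5 of them by edgeR, with a median log2 fold change of -2.03. Their summed level was 1856 to 2340 FPKM in Young Sham, 235 to 1231 in Young Bleo, 1498 to 2414 in Aged Sham and 215 to 1653 in Aged Bleo. Within Young Bleo the library with most aerocyte RNA, number 20 (1231 FPKM), was also the one with most Apln, and within Aged Bleo libraries 3 (1653) and 5 (1320) exceeded 1 (215) and 2 (371) in both. Across the 16 libraries Apln and this sum had a Pearson r of 0.94 on the log2 scale, and of 0.89 after the group means were removed. These points share the sorted population, and the part of cell composition in the fall of Apln was not tested.

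Cxcl12 ran the other way. Its r with the aerocyte sum was -0.95 (-0.90 within groups), and with the sum of the 6 arterial markers (Gja5, Gja4, Bmx, Efnb2, Hey1 and Dkk2) it was 0.97 (0.96 within groups). With the macrophage sum it was 0.85 (0.91 within groups), and with the general capillary sum 0.71 (0.50). The arterial sum was 100 to 170 FPKM in Young Sham, 226 to 387 in Young Bleo, 81.7 to 133 in Aged Sham and 158 to 401 in Aged Bleo, and 3 of the 6 markers rose in Young Bleo by both tools. Gja4, a connexin of arterial endothelium, had 53714 and 48348 normalized counts in Aged Bleo 1 and 2, and 17900 and 23061 in Aged Bleo 3 and 5. The sum of the 6 general capillary markers was 503 to 714 FPKM in Young Sham, 681 to 863 in Young Bleo, 362 to 555 in Aged Sham and 607 to 765 in Aged Bleo. Between the sham groups 2 of these 6 by DESeq2 and 1 by edgeR, Kit in both (-1.29 ± 0.24, adjusted p = 3.1e-05 by DESeq2 and 0.019 by edgeR), fell alongside Aplnr, whose r with the sum was 0.69 (0.37 within groups). Gpihbp1, the first marker of the list, did not fall, with means of 29028 normalized counts in Young Sham and 32486 in Aged Sham. Its sham groups overlapped, and 0 of the 6 were called higher in Aged Sham.

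Lymphatic and venous markers also differed between groups. The sum of the 6 lymphatic markers was 678 to 1523 FPKM in Young Bleo and 263 to 363 in Young Sham, beside 316 to 607 in Aged Bleo and 253 to 346 in Aged Sham, and 3 of 6 were called higher in Young Bleo by DESeq2 and 2 by edgeR. Its r was 0.82 with Cxcl12 (0.38 within groups) and -0.88 with Apln (-0.65 within groups). Of the 6 venous markers, 3 were called higher in Young Bleo and 3 in Aged Sham by DESeq2, and 1 in each by edgeR. Their sum was 47.6 to 69.9 FPKM in Young Sham and 97.2 to 113 in Aged Bleo, where 4 of 6 were called higher than in Young Sham by both tools, and reached 109 in Young Bleo and 134 in Aged Sham. Of the 6 pan-endothelial markers, 1 was higher and 1 lower in Young Bleo by both tools, with a median log2 fold change of 0.00027. Their sum was 1478 to 1841 FPKM in Young Bleo and 2140 to 2452 in Young Sham, beside 1320 to 1877 in Aged Bleo and 1940 to 2052 in Aged Sham. The part of these cell types in the members' values was not tested.

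Markers of cells outside the gate also differed between groups. The sum of the 8 macrophage markers was 22.7 to 39.3 FPKM in Young Sham, 146 to 421 in Young Bleo, 49.5 to 161 in Aged Sham and 188 to 1338 in Aged Bleo, and 4 of 8 rose in Young Bleo by both tools. Aged Bleo 1 (1338 FPKM) and 2 (763), the libraries with most Cxcl12 and Ackr3 of their group, had the highest macrophage sums of all 16. Aged Bleo 3 (339 FPKM) and 5 (188) were also above every Young Sham library. Cd68, a lysosomal macrophage marker, had 7891, 5840, 1319 and 914 normalized counts in Aged Bleo 1, 2, 3 and 5, against 53.3 to 128 in Young Sham. The part of these cells in the values of Cxcl12 and Ackr3 was not tested.

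Fibroblasts and mural cells also make CXCL12, and 0 markers of either list were called higher in Young Bleo by DESeq2 or edgeR. Cells with the Col1a1-GFP reporter were gated out of all libraries. The sum of the 8 fibroblast markers was 17.1 to 37.6 FPKM in Young Sham, 21.0 to 33.1 in Young Bleo, 18.1 to 42.9 in Aged Sham and 10.9 to 15.3 in Aged Bleo. Of the 8 pericyte and smooth muscle markers, 5 fell in Young Bleo by DESeq2 and 3 by edgeR, and their sum was 54.7 to 115 FPKM in Young Sham against 19.7 to 49.0 in Young Bleo. It was 29.1 to 52.8 in Aged Sham, below every Young Sham library, with 2 of 8 lower by DESeq2 and 0 by edgeR, and 13.0 to 23.0 in Aged Bleo, where all 8 were lower than in Young Sham by both tools. Of the fibroblast markers, 1 of 8, Tcf21, was lower in Young Bleo by both tools, with 41.9 to 150 normalized counts against 276 to 554 in Young Sham, and 4 of 8 were lower in Aged Bleo than in Young Sham by DESeq2 and 2 by edgeR. The list's median log2 fold change in Young Bleo was 0.29. Between the sham groups 1 of 8 was higher and 0 lower in Aged Sham by DESeq2, and 0 were called by edgeR, with a median of 0.01. The part of these cells in the values of Cxcl12, Aplnr and Cxcr4 was not tested.

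Lymphocytes are rich in CXCR4, and 1 of their 8 markers was higher in Aged Sham than in Young Sham by DESeq2. The sum of the 8 lymphocyte markers was 0.681 to 2.74 FPKM in Young Sham and 2.71 to 7.90 in Aged Sham. It reached 19.4 in Aged Bleo 5, a library with 211 normalized counts of Cxcr4. Platelet markers, 4 of 5 of which were higher in Aged Sham by DESeq2 and 1 by edgeR, summed to 627 to 3384 FPKM there and to 270 to 511 in Young Sham. Each of the 3 Aged Sham libraries was above all Young Sham libraries in the platelet sum, and the part of these cells in the lower Aplnr and Cxcr4 was not tested.

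Mesothelial and neutrophil markers were low and differed between groups. All 4 mesothelial markers were called higher in Young Bleo by both tools, and 3 of 4 in Aged Sham by DESeq2 and 2 by edgeR. Their sum was 4.96 to 15.3 FPKM in Young Bleo and 0.00405 to 1.18 in Young Sham, beside 0.506 to 5.50 in Aged Bleo and 2.72 to 12.4 in Aged Sham. Msln, the mesothelin gene, had 0 to 119 normalized counts in Young Sham and 607 to 2189 in Young Bleo. Of the 6 neutrophil markers, 2 were higher in Young Bleo by both tools, and their sum was at most 1.30 FPKM in Young Bleo and 0.779 in Young Sham, beside 9.83 in Aged Bleo and 3.42 in Aged Sham. The 7 epithelial markers summed to 62.1 to 566 FPKM in Young Sham and 147 to 537 in Young Bleo, where 1 was lower by both tools. The part of these cells in the members' values was not tested.

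**Figure D4:**
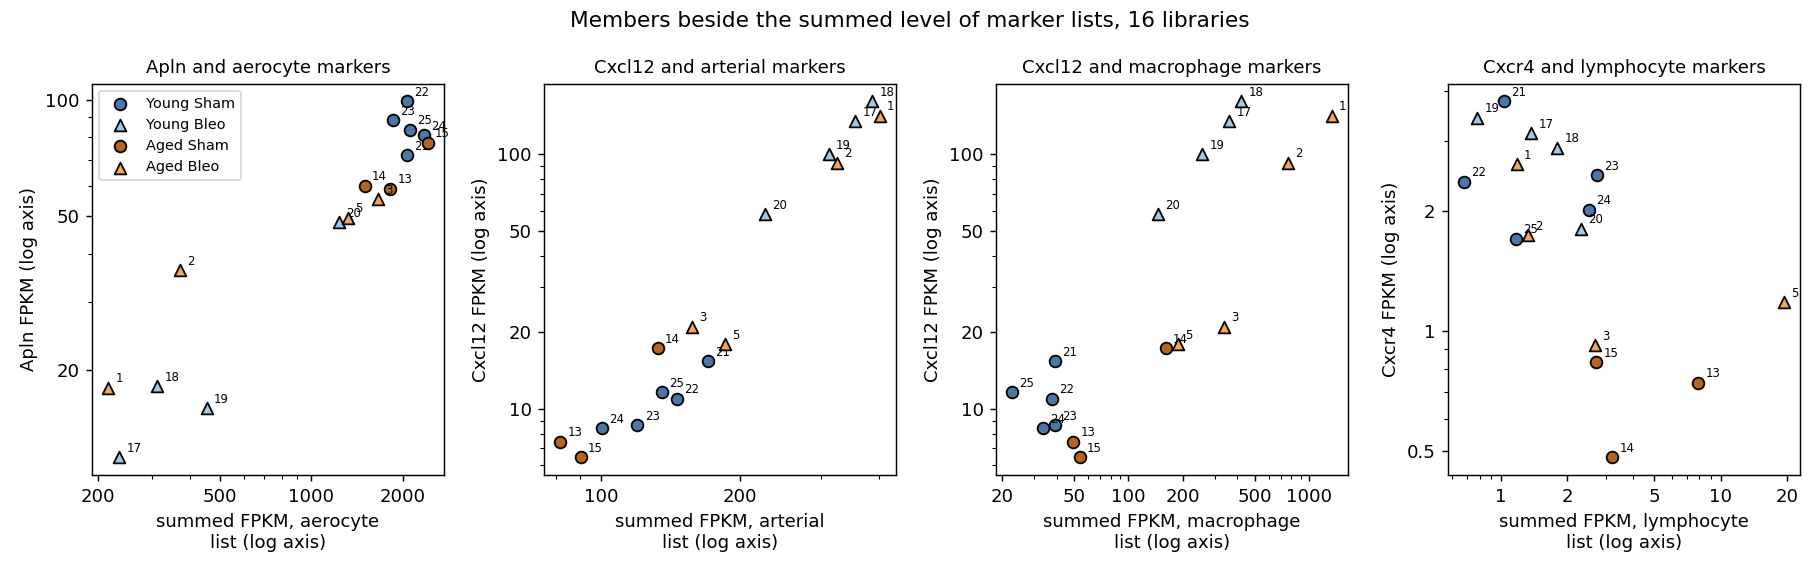
FPKM of Apln, Cxcl12 and Cxcr4 (vertical log axes) against the summed FPKM of a marker list (horizontal log axes) in 16 libraries, coloured by group and numbered. Apln rises with the aerocyte sum, Cxcl12 rises with the arterial sum, Young Bleo 20 lies between the sham and the other Young Bleo libraries in both, and Cxcr4 does not rise with the lymphocyte sum.

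The genes whose pattern was most like each member were ranked by Pearson r of log2 normalized counts over the 16 libraries, among 13774 genes with a mean of at least 50. For Apln they were Vcl (r = 0.98), which encodes the adhesion protein vinculin, Gprc5a (0.98), and Chst1 (0.97), which is also in the aerocyte list. For Cxcl12 they were Sox17 (0.99), a transcription factor of arterial endothelium, the taurine transporter gene Slc6a6 (0.99) and Slc26a10 (0.99). Sox17 averaged 8427, 39337, 8265 and 26752 normalized counts in Young Sham, Young Bleo, Aged Sham and Aged Bleo, and followed Cxcl12 also within groups (r = 0.97).

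The receptors had other neighbours. For Aplnr they were Serpinh1 (0.94), the collagen chaperone gene, Acp6 (0.88) and Plxnd1 (0.85), a semaphorin receptor gene. For Cxcr4 they were Zmym3 (0.92), 4930578C19Rik (0.91) and Sall2 (0.90). For Ackr3 they were Spag9 (0.96), Adm (0.93) and the cathepsin gene Ctsb (0.93). Among the members themselves, Apln and Cxcl12 had an r of -0.93 (-0.74 within groups), Cxcl12 and Ackr3 of 0.79 (0.85 within groups), and Aplnr and Cxcr4 of 0.75 (0.12 within groups), so the last pair shared the group levels more than the library to library variation.

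Other genes of these pathways were described from lists of further ligands and receptors, ligand processing, shared signalling, endothelial regulators and tip cell genes. In Young Bleo against Young Sham 18 of 39 such genes tested were called by DESeq2, 9 higher and 9 lower, and 15 by edgeR. Over all genes the shares were 13.9% and 9.78%, and the median log2 fold change of the 39 was 0.20, beside 0.01 over all genes tested. The DESeq2 counts were 2 of 39 in Aged Sham against Young Sham (3.35% of all genes), 12 in Aged Bleo against Young Sham (9.72%), 4 in Aged Bleo against Aged Sham (5.83%), and 1 in Aged Bleo against Young Bleo (1.03%). For the difference between the responses it was 0 of 41, with 9 at an unadjusted p under 0.05 (8.1% of all genes) and 0 by edgeR.

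Of 7 further ligands and receptors tested, 3 rose and 3 fell in Young Bleo by DESeq2. Adm, which encodes adrenomedullin, a vasoactive peptide that ACKR3 also binds, rose by 2.61 ± 0.80 (adjusted p = 0.011 by DESeq2 and 0.041 by edgeR). It was at 147 to 219 normalized counts in Young Sham and at 2551, 960, 504 and 420 in Young Bleo 17 to 20. Calcrl (-0.89) and Ramp2 (-0.76), which form the signalling receptor of adrenomedullin, both fell by both tools. They are list members that the naming rule did not select, and are named after their values were seen. Mif, a cytokine that can bind CXCR4, rose by 1.37 ± 0.32, and its receptor Cd74, also the invariant chain of MHC class II, rose by 1.21 ± 0.39 (adjusted p = 0.019 by DESeq2 and 0.059 by edgeR). Cxcl14, a chemokine, fell by 1.51 on the log2 scale. The list had a median of 1.21 in the fitted values and of 0.22 without Cxcl11, which had 0 counts in every Young Sham library.

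In aged cells Adm and Cxcl11 stood out in this list. Adm was at 278, 449 and 190 normalized counts in Aged Sham 13, 14 and 15 and at 5630, 6537, 459 and 218 in Aged Bleo 1, 2, 3 and 5. As with Ackr3, Aged Bleo 1 and 2 carried the change, and the log2 fold change of 3.39 ± 0.91 was called by DESeq2 (adjusted p = 0.0077) and not by edgeR (0.086). Cxcl11, a chemokine that binds ACKR3 as well as CXCR3, had 30.0, 48.5 and 75.9 normalized counts in Aged Sham 13, 14 and 15, against 0 counts in all 5 Young Sham libraries. Set against a floor of 3 counts in the shallowest Young Sham library, Aged Sham cells had at least 8.36-fold higher levels, and Aged Bleo cells at least 3.71-fold higher levels with 7.06, 46.4, 7.80 and 30.0 normalized counts. The list's median was 0.62 between the sham groups, 1.19 in Aged Bleo against Young Sham and 0.13 in Aged Bleo against Aged Sham.

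Among 4 genes of ligand processing tested, Dpp4 and Mmp2 were called in Young Bleo. Dpp4, a peptidase that cleaves and inactivates CXCL12, had 9668, 10610, 10279, 8592 and 9988 normalized counts in Young Sham 21 to 25 and 2176, 3060, 3369 and 6045 in Young Bleo 17 to 20. It fell by 1.42 on the log2 scale (adjusted p = 2.1e-04 by DESeq2 and 0.012 by edgeR), and in Aged Bleo against Young Sham by 1.12 (0.0073 by DESeq2). Aged Sham 13, 14 and 15 had 4428, 4111 and 8048, all below every Young Sham library, although the difference of -0.83 was not called (adjusted p = 0.19 by DESeq2). Aged Bleo differed from Aged Sham by -0.29 (0.75). Mmp2, a metalloproteinase that also cleaves CXCL12, rose by 0.99 ± 0.26 in Young Bleo. The list's median was -0.06.

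Of 11 shared signalling genes, which comprise G protein subunits, receptor kinases, arrestins and Rgs16, 3 were called in Young Bleo by DESeq2 and 2 by edgeR. Rgs16, a regulator that shortens G protein signalling, rose by 1.54 ± 0.40, from 67.0 to 143 normalized counts in Young Sham to 224 to 464 in Young Bleo. Gna13 fell by 0.89 and the receptor kinase gene Grk5 fell by 0.54 on the log2 scale, the latter not called by edgeR (0.056). The list's median was -0.08, and the same 3 genes were called in Aged Bleo against Young Sham by DESeq2 (Rgs16 1.19, Gna13 -0.60 and Grk5 -0.56), of which edgeR called Gna13 (adjusted p = 0.047) and neither Rgs16 (0.081) nor Grk5 (0.063).

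Among 10 endothelial regulators 3 rose and 2 fell in Young Bleo by both tools, with a median of 0.40. Sox17 rose by 2.22 ± 0.36, Hif1a, which encodes a hypoxia-inducible factor, by 0.98 ± 0.30, and Dll4, a Notch ligand of tip and arterial cells, fell by 0.91 on the log2 scale. Klf2, a gene induced by flow, fell by 0.78. Erg, the ETS factor of endothelial identity, which is in the list but was not selected by the naming rule, was higher than in Young Sham in Young Bleo (0.69 ± 0.15), Aged Sham (0.67 ± 0.16) and Aged Bleo (0.53 ± 0.15) by DESeq2, and edgeR did not call it in Aged Sham (0.056). In Aged Bleo against Aged Sham Sox17 was the 1 regulator called, at 1.69 ± 0.41 by DESeq2 (adjusted p = 0.0025; edgeR 0.061).

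Apln is known as a tip cell gene. Of the 8 other tip cell genes, 1 was higher and 2 were lower in Young Bleo by DESeq2, and 0 were higher and 2 lower by edgeR, with a median log2 fold change of 0.38. Nid2, a basement membrane gene, rose by 1.27 ± 0.48 (adjusted p = 0.049 by DESeq2 and 0.10 by edgeR), whereas Plaur, the urokinase receptor gene, fell by 0.99 on the log2 scale (adjusted p = 1.3e-05 by DESeq2) and Dll4 fell as given above. In Aged Bleo against Aged Sham Nid2 was 2.15 ± 0.55 higher and Plaur 0.65 lower on the log2 scale by DESeq2, and neither was called by edgeR. Plaur was the 1 gene of these lists called between the bleomycin groups, 0.93 ± 0.20 higher in Aged Bleo (adjusted p = 0.002 by DESeq2 and 0.12 by edgeR).

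**Figure D5:**
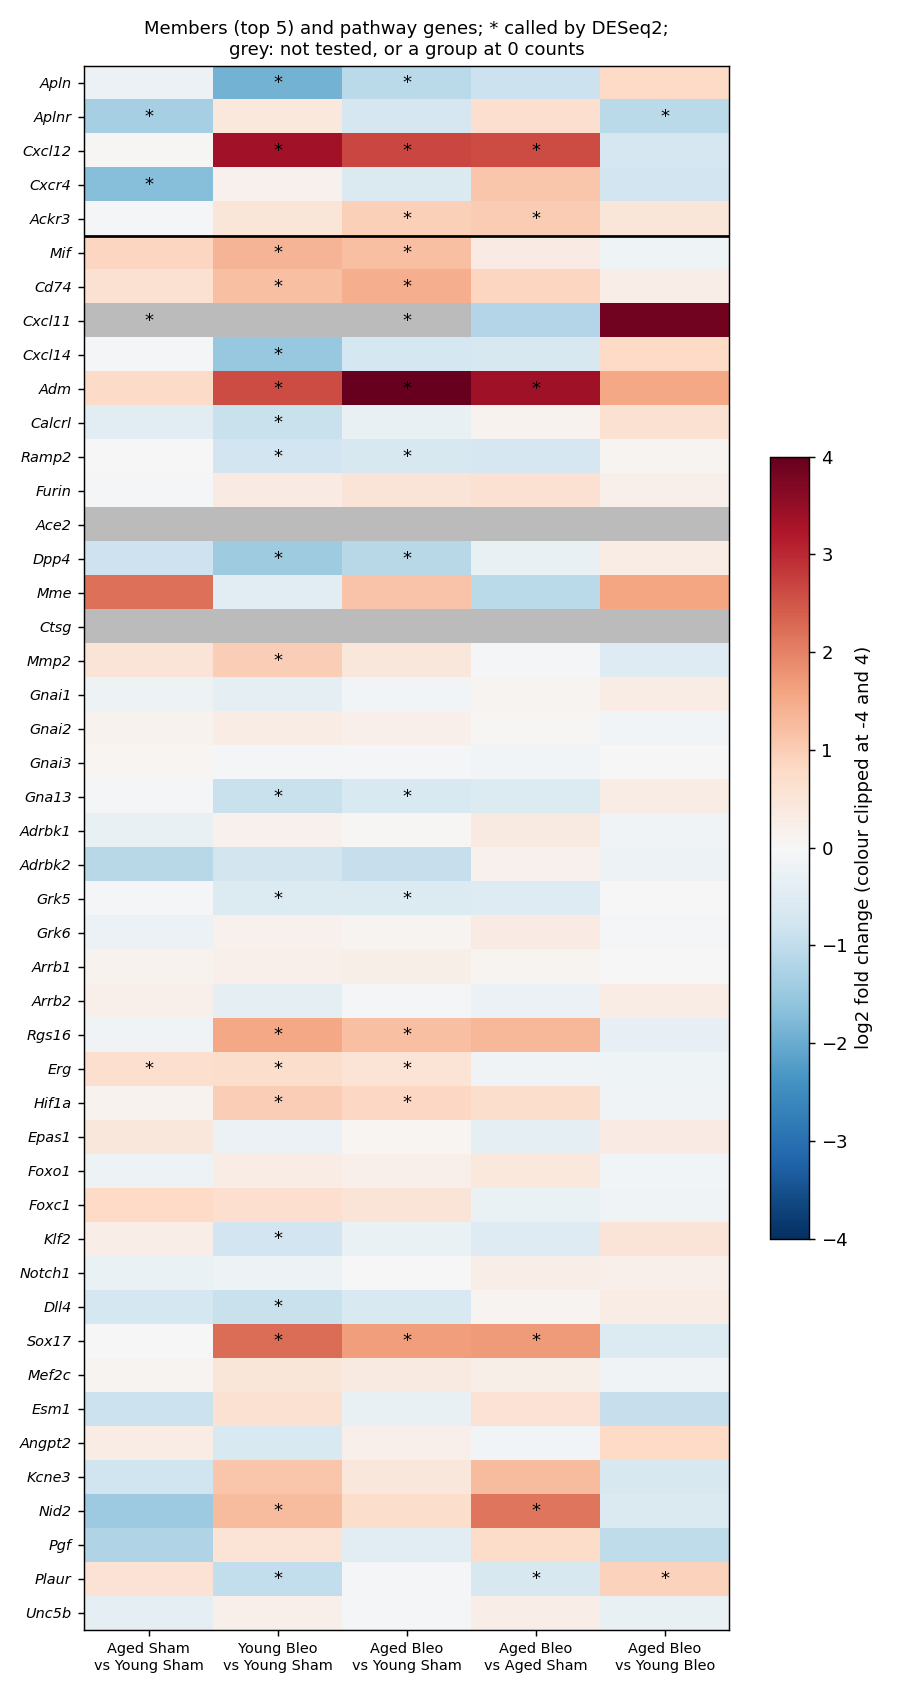
Log2 fold changes (colour, clipped at -4 and 4) of the 5 members above the line and of the pathway genes below it in 5 comparisons, with stars for DESeq2 calls and grey for genes not tested or with a group at 0 counts. Stars are densest in the column of Young Bleo against Young Sham, where Cxcl12, Adm and Sox17 are the darkest red, and 1 pathway gene, Plaur, is starred in Aged Bleo against Young Bleo.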

How the data were processed

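RNA from 16 samples was sequenced. The authors aligned reads to mm10 with STAR 2.5.2b and counted them with featureCounts of Subread, per the labels and methods. The deposited table holds raw counts and FPKM per gene as the authors computed them. Strand and multi-mapping settings and the annotation release are not given in the sources used here. The labels name SMART-Seq v4 with Nextera and the methods TruSeq, so the library kit is uncertain.

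Counts of all genes were fitted with DESeq2 1.42.0 (the study's tool; group as the only term, 16 libraries, Benjamini-Hochberg adjustment, calls needed an adjusted p of 0.05 or less and a log2 change of 0.5 or more in size), and with edgeR 4.0.16 (quasi-likelihood test) beside it. Genes for edgeR were filtered with its filterByExpr function by group, a cutoff on counts scaled to library size. Ratios used FPKM + 0.1 with two-sided exact permutation tests in scipy 1.17.1. Positive values are the first group minus the second. Every pair of replicates differed by more than sampling noise (chi-square per degree of freedom at least 35.1). Over genes in general this value was 114 between Aged Bleo 1 and 2 and 88.9 between 3 and 5. It was 328 to 459 across these 2 pairs, so the Aged Bleo means average unlike libraries. Young Bleo 20 differed from 17, 18 and 19 by 196 to 240, against 51.1 to 77.0 among those. Library numbers were taken from titles. Each library is labelled as a separate sample, and p-values set a difference between groups against the spread between these samples. Adgre1 is listed as Emr1, and Apela was not analysed here. Named genes were the members, the 3 genes most like each member, and up to 4 called genes of each pathway list with the largest changes. Upstream sequences are from RefSeq. The fits were tested on simulated data. The members and lists were chosen with earlier results of these data known. Alternatives were other normalizations, filters, limma 3.58.1 on log2(FPKM + 0.1) and log2(FPKM + 1), and leaving out each library.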

Additional observations from a re-analysis of the deposited data

How the results depend on the processing

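No paired analysis was possible because the library numbers in the titles do not repeat between groups. With edgeR in place of DESeq2 the Aged Bleo against Young Sham value of Apln was -1.08 and no longer called, the Aged Bleo against Aged Sham values of Cxcl12 (2.62) and Ackr3 (1.04) were not called, nor was the Aged Bleo against Young Bleo value of Aplnr (-1.09), so that 0 members were called in the last 2 comparisons. Those 2 counts were also 0 with limma on log2(FPKM + 0.1), where Ackr3 (0.80 against Young Sham, 1.00 against Aged Sham), Cxcl12 (2.31) and Aplnr (-1.08) were not called, and on log2(FPKM + 1), with 0.79, 0.98, 2.21 and -1.05. Under these settings Cxcl12 in Aged Sham against Young Sham turned to -0.19 and -0.17 and stayed uncalled. DESeq2 on the libraries of a comparison alone called Aplnr in Aged Bleo against Young Sham (-0.67) and lost Ackr3 in Aged Bleo against Aged Sham (1.03), leaving 1 member called there, and TMM factors made Cxcr4 in that comparison a call (1.14). The cause was not tested. A pseudocount of 1 moved the Ackr3 to Cxcr4 difference in Aged Bleo against Aged Sham from -0.05 to 0.39, by construction at the low Cxcr4 level. With deviations from group means, 0 of the 3 genes most like Aplnr and 0 of those most like Cxcr4 remained, and 1 for Ackr3.

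Leaving out 1 library gave these ranges where a call or sign changed. In Aged Sham against Young Sham Cxcl12 ran from -0.52 (without Aged Sham 14) to 0.33, and was -0.02 and -0.01 without Young Sham 23 and 24. Ackr3 ran from -0.22 to 0.013, and was 0.00026 without Aged Sham 15. In Aged Bleo against Young Sham Apln ran from -1.27 to -0.84, Aplnr from -0.79 to -0.57 (called without Young Sham 24) and Ackr3 from 0.66 to 1.17, with 1 to 4 members called. In Aged Bleo against Aged Sham Cxcr4 ran from 0.80 to 1.32 and Ackr3 from 0.73 to 1.24, with 1 to 3 called. In Aged Bleo against Young Bleo Apln ran from 0.60 to 1.37 and Aplnr from -1.28 to -0.96, with 0 to 2 called. The Apln difference between the responses ran from 0.84 to 1.62, with 0 to 1 called. The Cxcl12 to Cxcr4 difference in Aged Bleo against Young Bleo ran from -0.61 to 0.019, and the Ackr3 to Cxcr4 difference in Aged Bleo against Aged Sham from -0.23 to 0.29. The calls of Aplnr and Cxcr4 between the sham groups, of Apln and Cxcl12 in Young Bleo, and of Cxcl12 in Aged Bleo against Young Sham held under every alternative run. Groups of 3 to 5 libraries and the low counts of Cxcr4 limit the precision.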
